A study of Mus musculus with 12 samples.

Results

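The mouse genes of the cyclin-dependent kinase inhibitors were followed in RNA-Seq counts of primary keratinocyte cultures. The members were the 7 *Cdkn* genes *Cdkn1a*, *Cdkn1b*, *Cdkn1c*, *Cdkn2a*, *Cdkn2b*, *Cdkn2c* and *Cdkn2d*, found by gene name among the 21947 loci of the count table. *Cdkn1b* was chosen by its readout: it was picked for lying higher in every siSbsn library than in the siControl libraries of its batch, so its difference under siSbsn is given below as a description, without a test. The keratinocytes came from newborn BALB/c mice and were differentiated by raising calcium from 0.05 mM to 0.12 mM. Short interfering RNAs (siRNA, 75 pmol) against *Sbsn*, the gene of the secreted epidermal protein suprabasin, were given as a pool (siSbsn) beside a non-targeting pool (siControl) and cultures that had no siRNA, with RNA collected 48 hours later. The labels place the 12 libraries in 2 batches. All 3 conditions were present in batch 1, with 2 libraries apiece. Batch 2 consisted of 3 siControl libraries, numbered 1 to 3, and 3 siSbsn libraries, numbered 4 to 6. Nothing says that the libraries came from separate cultures or animals, so the p-values measure only the spread between these libraries, which may be technical.

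Progression through the cell cycle is driven by cyclin-dependent kinases (CDKs) bound to cyclins, and the *Cdkn* genes encode proteins that bind and block them. The CIP/KIP proteins p21 (*Cdkn1a*), p27 (*Cdkn1b*) and p57 (*Cdkn1c*) act on cyclin-CDK complexes broadly, whereas the INK4 proteins p16 (*Cdkn2a*), p15 (*Cdkn2b*), p18 (*Cdkn2c*) and p19 (*Cdkn2d*) bind CDK4 and CDK6 and keep them from phosphorylating the retinoblastoma protein. Keratinocytes leave the cell cycle as they move from the basal layer of the epidermis into the differentiating layers, and p21 and p27 are best known in this tissue for that exit.

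Total counts ranged from 27934836 to 49553923 per library. Levels are given as CPM, counts scaled by the TMM-normalized library size. *Sbsn* itself measured 371, 332 and 459 CPM in the siControl libraries of batch 2 and 124, 125 and 121 CPM in the siSbsn libraries. The siControl libraries of batch 1 held 1189 and 1356 CPM of it, and the library labelled siSbsn batch 1 replicate 1 held 1965 CPM, above both, while replicate 2 held 696 CPM. The target gene therefore did not show the labelled knockdown in siSbsn batch 1 replicate 1, and values without that library are given where they change a call of an inhibitor or, by over 1.5 times, a count of a list. All 5 keratinocyte markers, among them *Krt5*, *Krt14* and *Trp63*, were detected in every library. All 5 melanocyte markers were detected too, with a summed level of 720 to 1046 CPM. The 6 fibroblast markers summed to 928 CPM in no siRNA batch 1 replicate 1 and to 1163 CPM in siSbsn batch 1 replicate 1, against 358 to 488 CPM in the other 10 libraries. *Col1a1* (725 and 902 CPM) and *Col1a2* (155 and 201 CPM) made up most of those higher sums. In such bulk RNA, fewer cells of a type and less RNA per cell cannot be told apart.

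To show the stretch that precedes the start of the member on which the selection rests, the 250 bases upstream of the *Cdkn1b* start are printed first. The *Cdkn1a* stretch beside it is shown because *Cdkn1a* and a list of p53 targets were compared between the batches. Both were taken from RefSeq (GRCm38.p6), where 6 of the 7 members had an entry, and both lie on the plus strand: *Cdkn1b* at chr6:134920151-134920400 and *Cdkn1a* at chr17:29090729-29090978. Capitals in *Cdkn1b* mark CCAAT (the CCAAT box, bound by NF-Y) and GGGCGG (the GC box, bound by Sp factors), and capitals in *Cdkn1a* mark a pair of CATG cores of the p53 half-site, 6 bases apart, with 3 flanking bases on each side.
*Cdkn1b*: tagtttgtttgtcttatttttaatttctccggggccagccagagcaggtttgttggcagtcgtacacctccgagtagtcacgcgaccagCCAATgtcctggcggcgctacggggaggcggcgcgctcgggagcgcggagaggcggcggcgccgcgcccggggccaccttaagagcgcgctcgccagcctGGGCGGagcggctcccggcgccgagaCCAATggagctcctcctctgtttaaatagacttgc
*Cdkn1a*: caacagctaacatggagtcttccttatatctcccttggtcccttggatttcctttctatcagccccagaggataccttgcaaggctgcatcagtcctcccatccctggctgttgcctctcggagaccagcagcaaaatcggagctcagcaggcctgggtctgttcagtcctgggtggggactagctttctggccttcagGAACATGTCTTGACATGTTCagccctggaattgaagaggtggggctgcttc
The *Cdkn1b* window held 2 CCAAT matches and 1 GC box, searched on both strands. Among all 32851 RefSeq upstream windows of 250 bases, 33.8% held CCAAT and 32.7% held GGGCGG, so that neither match was rare. Bases -51 to -32 of the first *Cdkn1a* start held the paired p53 cores, which were present in 0.49% of all windows (161 of 32851). Of the *Cdkn1a* windows, this one was printed because it held the pair, so nothing is read from that share. The *Cdkn1a* window that starts at base 29093519 held no such pair and 2 GC boxes. No window of *Cdkn1b*, *Cdkn2a*, *Cdkn2b*, *Cdkn2c* or *Cdkn2d* held that pair, and the forkhead letters GTAAACA were in no member window. A match of letters is a description, not evidence of a bound site.

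Per length, *Cdkn1a* stood far above the other members. Its median over the 12 libraries was 686 CPM per kilobase of its longest annotated transcript, at the 99.7th percentile of loci. *Cdkn1b* followed at 15.9 CPM per kilobase, the 69.1st percentile. *Cdkn2b* (3.29) and *Cdkn2d* (3.19) had near medians, and *Cdkn2c* (1.57) and *Cdkn1c* (1.19) came below them. *Cdkn2a* was lowest at 0.0857 CPM per kilobase. The ranges over libraries of *Cdkn1a*, *Cdkn1b* and *Cdkn2b* did not overlap in that order, nor did those of *Cdkn1c* and *Cdkn2a*. Those of *Cdkn2b* and *Cdkn2d*, of *Cdkn2d* and *Cdkn2c*, and of *Cdkn2c* and *Cdkn1c* did. The precision differed accordingly: counts per library lay between 37758 and 81766 for *Cdkn1a*, between 1712 and 4151 for *Cdkn1b* and between 51 and 114 for *Cdkn1c*.

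*Cdkn1b* encodes p27, which holds cyclin E-CDK2 inactive and is degraded through the SKP2 ubiquitin ligase. Its locus spans bases 134920401 to 134925525 of mouse chromosome 6 (mm10, plus strand), with 2 exons in the longest transcript. The siControl libraries of batch 1 held 61.7 and 60.4 CPM of *Cdkn1b*, and the siSbsn libraries 94.2 and 95.9 CPM. The siControl libraries of batch 2 held 67.0, 61.5 and 61.4 CPM, and the siSbsn libraries 80.6, 79.0 and 77.7 CPM. The libraries without siRNA, which the choice did not use, were at 83.1 and 67.2 CPM. The siSbsn libraries lay above the siControl libraries in each batch, as the choice required, and both libraries without siRNA lay between the siControl and the siSbsn libraries of their batch. The gap within batch 1 from the highest siControl to the lowest siSbsn library was wider than in batch 2.

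The siSbsn mean of *Cdkn1b* was 1.56 times the siControl mean in batch 1 (95.0 ± 1.15 against 61.0 ± 0.891 CPM, SD, n = 2 each). In batch 2 it was 1.25 times (79.1 ± 1.49 against 63.3 ± 3.21 CPM, SD, n = 3 each). The fitted log2-fold change was 0.61 (standard error 0.24) in batch 1 alone and 0.33 (standard error 0.06) in batch 2 alone. Over both batches it was 0.45 (standard error 0.08), below the 0.5 threshold used for calls. Without siSbsn batch 1 replicate 1, whose *Sbsn* level went against its label, it was 0.44, and with a trend of the counts on gene length removed it was 0.36. Of the 6 members that passed the filter on low counts, 1 (*Cdkn1b*) lay above siControl in every siSbsn library of both batches. The same held for 5.13% of all 12857 loci tested, and since the rule used this pattern nothing is read from that count. The opposite pattern was found in 0 members and in 4.22% of loci.

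**Figure D1:**
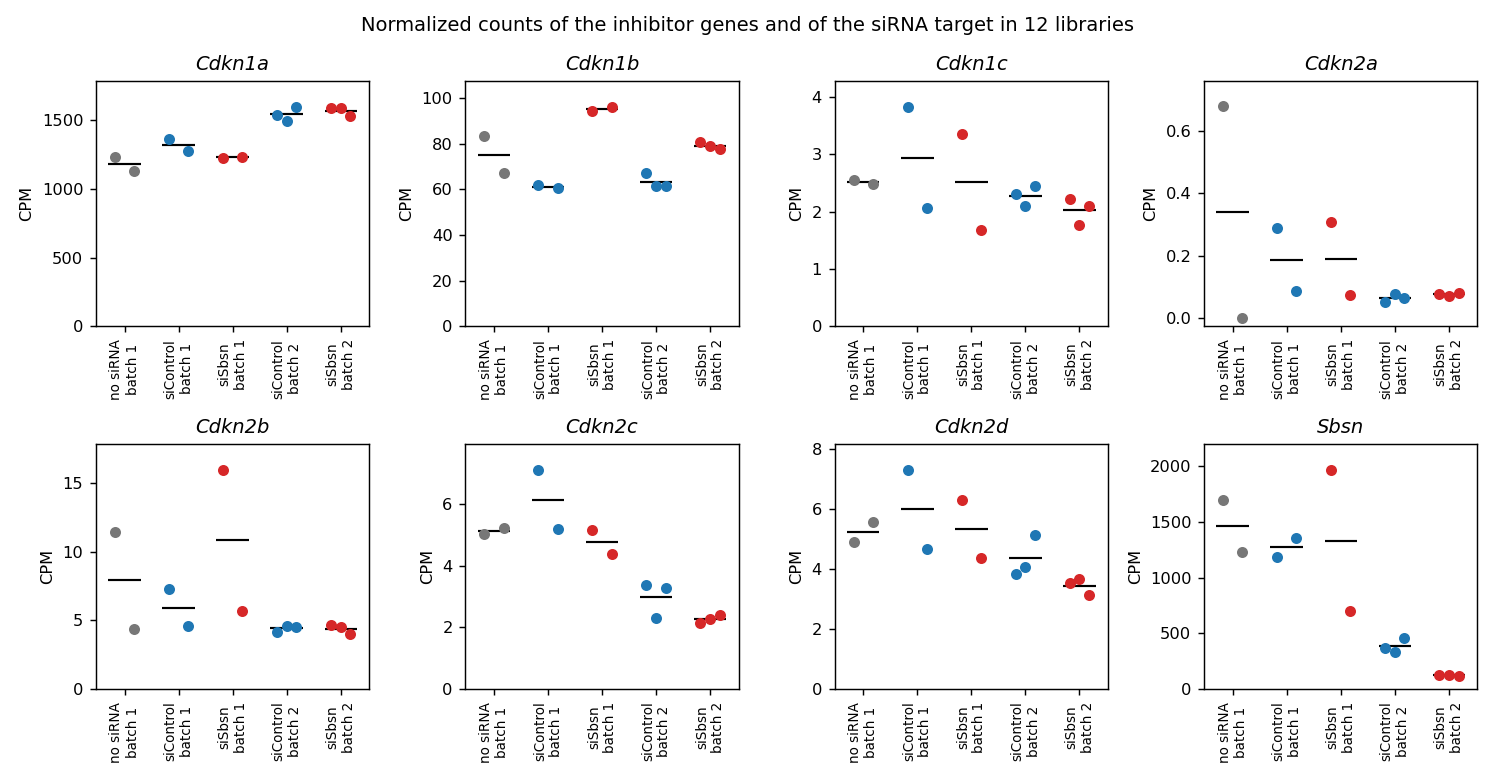
CPM (vertical axis, linear, from 0) of the 7 inhibitor genes and of *Sbsn* in 12 libraries grouped by condition and batch on the horizontal axis; points are libraries and bars are group means. *Cdkn1b* in siSbsn (77.7 to 95.9) lies above siControl (60.4 to 67.0), *Cdkn1a* and *Cdkn2c* separate by batch, and *Cdkn2b* is highest at 15.9 in siSbsn batch 1 replicate 1.

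For the other members, the siSbsn effect was estimated by the quasi-likelihood method of edgeR in a model that held the batch. Calling a gene required that its log2-fold change exceed 0.5 in size and that its q, adjusted by Benjamini-Hochberg over all loci, fall under 0.05. None of the 5 other members tested was called, and 0 of 12857 loci (0%) were called by edgeR. The target *Sbsn* was itself not called in this fit (log2-fold change -0.96, standard error 0.35, q = 0.254, edgeR), which limits what the absence of calls can show. At an unadjusted p under 0.05 there were 1 of these 5 members (*Cdkn2c*) and 2464 loci. DESeq2 without its beta prior called 93 loci and 0 of these members, and limma-voom called 0 of both.

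*Cdkn1a*, a p53 target gene that encodes p21, lies on the plus strand of chromosome 17 from 29090979 to 29100722. In batch 1 the siControl libraries held 1360 and 1275 CPM and the siSbsn libraries 1223 and 1233 CPM. In batch 2 the siControl libraries held 1540, 1494 and 1593 CPM and the siSbsn libraries 1588, 1586 and 1530 CPM. The siSbsn libraries lay below siControl in batch 1 and overlapped it in batch 2. The log2-fold change over both batches was -0.02 (standard error 0.07, q = 0.862, edgeR), and its direction turned under several alternatives, for example to 0.14 with the length trend removed.

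*Cdkn1c* encodes p57 and is an imprinted gene expressed from the maternal copy. It lies on the minus strand of chromosome 7 from 143458339 to 143461050. The siControl libraries of batch 1 held 3.82 and 2.06 CPM, and the siSbsn libraries 3.36 and 1.69 CPM. The batch 2 values were 2.30, 2.09 and 2.45 CPM in siControl and 2.22, 1.76 and 2.10 CPM in siSbsn. The groups overlapped in both batches, and in batch 1 the number 1 library of each group was the higher. By edgeR the difference was -0.18 on the log2 scale, with a standard error of 0.22 (q = 0.598), and 0.013 with the length trend removed.

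Among the INK4 genes, *Cdkn2c* encodes p18 and lies on the minus strand of chromosome 4 from 109660876 to 109666756. Its levels in batch 1 were 7.10 and 5.18 CPM for siControl and 5.15 and 4.39 CPM for siSbsn. Its levels in batch 2 were 3.37, 2.29 and 3.29 CPM for siControl and 2.14, 2.28 and 2.41 CPM for siSbsn. The siSbsn libraries lay below siControl in batch 1 and overlapped it in batch 2 through siControl batch 2 replicate 2. By edgeR the difference was -0.37 on the log2 scale, with a standard error of 0.15 (q = 0.255, unadjusted p = 0.0269), and it was -0.39 in batch 1 alone and -0.38 in batch 2 alone. Permuting the labels inside each batch (exact test, two-sided, 120 arrangements) gave p = 0.05, with 0.0167 the lowest value it could reach.

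*Cdkn2d* encodes p19 and lies on the minus strand of chromosome 9 from 21288464 to 21291209. In batch 1 its siControl levels of 7.31 and 4.69 CPM overlapped its siSbsn levels of 6.32 and 4.39 CPM. In batch 2 the siControl levels were 3.84, 4.08 and 5.15 CPM, and the siSbsn levels, all lower, were 3.54, 3.66 and 3.14 CPM. The log2-fold change over both batches was -0.26 (standard error 0.16, q = 0.33, edgeR; exact permutation p = 0.167). A locus that joins *Ap1m2* and *Cdkn2d* was left out, and held 0 counts in every library.

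*Cdkn2b* encodes p15, which is known for its induction by TGF-beta, and lies on the minus strand of chromosome 4 from 89306289 to 89311032, next to *Cdkn2a*. Its levels in batch 1 were 11.4 and 4.38 CPM for no siRNA, 7.24 and 4.57 CPM for siControl, and 15.9 and 5.69 CPM for siSbsn. Its levels in batch 2 were 4.16, 4.56 and 4.51 CPM for siControl and 4.62, 4.52 and 4.03 CPM for siSbsn. The number 1 library was the higher one in each condition of batch 1, and the 6 libraries of batch 2 lay close together. The log2-fold change between siSbsn and siControl was 0.36 (standard error 0.28, q = 0.41, edgeR). Without siSbsn batch 1 replicate 1 it was -0.0040.

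The spread of *Cdkn2b* within batch 1 moved with other measures. The 2 libraries with the highest *Cdkn2b*, no siRNA replicate 1 and siSbsn replicate 1, were also those with the highest fibroblast marker sums, whereas siControl batch 1 replicate 1 (7.24 CPM of *Cdkn2b*) had a fibroblast sum of 426 CPM, within the range of the other libraries. These sums were mostly *Col1a1* and *Col1a2*. Within batch 1, 6 of the 6 markers were above 0 for siSbsn against no siRNA. For siControl against no siRNA 1 of 6 was above 0, and 0 were called in either comparison (edgeR). Between the batches the 6 markers did not move together. By edgeR, 2 of them were called higher in batch 2 than in batch 1 and 1 lower. Their log2-fold changes were 1.16 for *Dcn*, 0.51 for *Lum* and -0.75 for *Col1a1*. Of all 10941 loci compared, the one whose log2 level was most like that of *Cdkn2b* over the 12 libraries was *Tgfbi*, a TGF-beta induced matrix protein gene (Pearson's r = 0.99, as a description), with r = 0.89 within batch 2. *Dapl1* came next (r = 0.98), with 57 counts in siSbsn batch 1 replicate 1, 39 in no siRNA batch 1 replicate 1 and 2 to 10 in the others, and its r within batch 2 was -0.28. *Tgfbi* was at 10.9 CPM without siRNA and at 14.3 CPM in siSbsn in the number 1 libraries of batch 1, and at 1.76 to 4.18 CPM in the other 10. The part of fibroblast RNA in the *Cdkn2b* level was not tested.

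**Figure D2:**
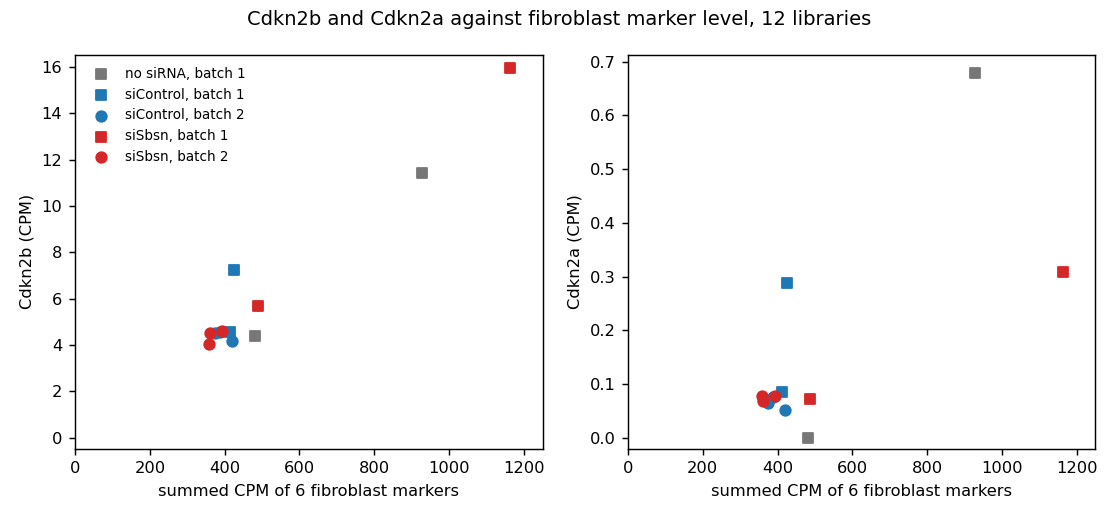
CPM of *Cdkn2b* (left) and *Cdkn2a* (right) on the vertical axes against the summed CPM of 6 fibroblast markers on the horizontal axes, in 12 libraries; squares are batch 1, circles are batch 2, and colours are conditions. The 2 libraries with marker sums of 928 and 1163 CPM hold the highest *Cdkn2b*, 11.4 and 15.9 CPM, and the siControl square at 7.24 CPM has a marker sum of 426 CPM.

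*Cdkn2a* lies on the minus strand of chromosome 4 from 89274473 to 89294619 and encodes p16 and, from another first exon, the p53 activator ARF. The locus counts cannot separate these transcripts. It had 29 and 0 counts in the libraries without siRNA, 8 and 3 in siControl and 10 and 3 in siSbsn of batch 1, and between 2 and 4 counts in all 6 libraries of batch 2. The exact 95% interval of the 0 of 36755865 counts reached up to 0.1004 on the scale of total CPM, for counting error only. As for *Cdkn2b*, the number 1 library of each condition in batch 1 held more than the number 2 library. *Cdkn2a* did not pass the filter on low counts over the siRNA libraries, and a difference between siSbsn and siControl was not detectable at this depth (p = 0.5 by the same exact permutation).

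**Figure D3:**
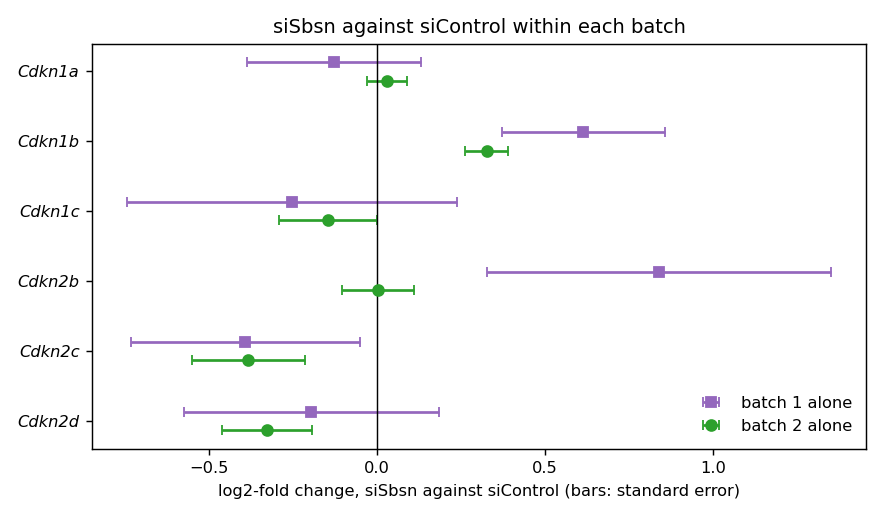
Log2-fold change of siSbsn against siControl (horizontal axis) for the 6 inhibitor genes that passed the filter, fitted in batch 1 alone (squares) and batch 2 alone (circles), with bars of 1 standard error. *Cdkn1b*, chosen on this difference, is at 0.61 and 0.33, *Cdkn2c* at -0.39 and -0.38, and *Cdkn2b* at 0.84 and 0.0025.

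The effect of siSbsn was also compared between the batches by the interaction of batch and treatment. For *Cdkn1b* the batch 2 effect minus the batch 1 effect was -0.30 (standard error 0.13), given as a description. For *Cdkn2b* it was -0.86 (standard error 0.52, q = 0.419, edgeR) and was 0.028 without siSbsn batch 1 replicate 1. No member and 0% of the 12857 loci were called by edgeR for this difference, with 1945 loci but none of the 5 other members at an unadjusted p under 0.05. With DESeq2, 208 loci were called.

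The conditions of batch 1 were compared with the libraries without siRNA to ask whether transfection itself went with a difference. *Cdkn1a* was at 1230 and 1132 CPM without siRNA, below both siControl libraries. *Cdkn1c* (2.55 and 2.48 CPM) and *Cdkn2d* (4.90 and 5.57 CPM) lay between the 2 siControl libraries, and *Cdkn2c* was at 5.01 and 5.21 CPM, overlapping siControl. No member was called by edgeR for siControl against no siRNA (0% of 13176 loci) or for siSbsn against no siRNA (0% of 13176 loci). Here all 7 members passed the filter, *Cdkn2a* among them. Its 0 to 29 counts in batch 1 gave a standard error of 1.4 for siControl against no siRNA, too wide to read its lack of a call. At an unadjusted p under 0.05 there were 2116 and 23 loci and no member in either comparison, and DESeq2 called 26 loci for siControl against no siRNA. These comparisons share libraries and have 2 per group.

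The batches differed far more than the conditions. Between batch 2 and batch 1, with treatment in the model, edgeR called 4852 of 12857 loci (37.7%), 2112 higher and 2740 lower in batch 2. Of the 6 members tested, 3 were called, all lower in batch 2: *Cdkn2c*, *Cdkn2b* and *Cdkn2d*. This comparison did not enter the choice of *Cdkn1b*. Other differences between the batches cannot be told apart from the batch. The 5 keratinocyte markers summed to 16410 to 21680 CPM in batch 2 and 21190 to 46980 CPM in batch 1, the 5 melanocyte markers to 990 to 1046 and 720 to 896 CPM, and the 4 immune cell markers to 5.56 to 7.33 and 8.92 to 13.4 CPM. The keratinocyte sum was mostly *Krt14* and *Krt5*, both called lower in batch 2 (-0.84 and -0.93, edgeR). In contrast, *Krt10* was called higher (0.99), and *Trp63* (0.30) and *Krt1* (-1.25) were not called. The part of keratinocytes, melanocytes and immune cells in the batch differences of the inhibitors was not tested.

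*Cdkn2c* was lower in batch 2, at -1.06 on the log2 scale (edgeR, q = 0.000253, standard error 0.15). Every batch 2 library (2.14 to 3.37 CPM) lay below every batch 1 library (4.39 to 7.10 CPM), those without siRNA included. The call held with any 1 of the 10 libraries left out (-1.12 to -0.96), in siControl alone (-1.04, q = 0.0447) and with the length trend removed (-0.88). The difference for *Cdkn2b* was -0.88 (standard error 0.28, q = 0.0216, edgeR), for batch 2 values of 4.03 to 4.62 CPM against 4.38 to 15.9 CPM. It was -0.39 and no longer called without siSbsn batch 1 replicate 1, was not called without siSbsn batch 2 replicate 6 (q = 0.0517), and was -0.51 (q = 0.14) with the length trend removed. *Cdkn2d* differed by -0.55 (standard error 0.16, q = 0.0154, edgeR), with 3.14 to 5.15 CPM in batch 2 and 4.39 to 7.31 CPM in batch 1. That call was lost without siControl batch 1 replicate 1 (-0.43), without siSbsn batch 1 replicate 1 (-0.41, q = 0.0553) and with the length trend removed (-0.19).

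*Cdkn1a* was higher in batch 2. All 6 batch 2 libraries (1494 to 1593 CPM) lay above all 6 batch 1 libraries (1132 to 1360 CPM), with a log2-fold change of 0.28 by edgeR (q = 0.00713, standard error 0.07), under the 0.5 needed for a call. With the length trend removed it was 0.52 and called. *Cdkn1a* and *Cdkn2c* were 2 of 6 members whose batches did not overlap over all 12 libraries, against 30.9% of loci. *Cdkn1b* differed by -0.12 between the batches (q = 0.242, edgeR) and *Cdkn1c* by -0.34 (q = 0.217), with overlapping ranges for each.

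Genes around the inhibitors were followed through 7 lists, described by their counts and medians. For siSbsn against siControl no list member was called by edgeR or by DESeq2. The S-phase and mitosis list had a median log2-fold change of -0.19 over 21 genes, 4 of them above 0 and 11 at an unadjusted p under 0.05, against a median of 0.0055 over all loci. The 11 included *Mki67*, which was higher in siSbsn (0.36, q = 0.257, edgeR), and the others of the 11 were lower. Over all loci, 50.7% lay above 0 and 2464 of 12857 were at an unadjusted p under 0.05 (edgeR). The S-phase and mitosis genes with the smallest p were *Mcm3* (-0.30, q = 0.254), a subunit of the replicative helicase counted together with a neighbouring transcript, and *Cdt1* (-0.42, q = 0.254), which loads that helicase. The 12 cyclins and CDKs tested had a median of -0.18, with 3 above 0. Of these, *Ccne1*, the cyclin E1 partner of CDK2, was at -0.40 and *Ccna2*, cyclin A2, at -0.26 (q = 0.254 each). The *Ccna2* value is of a locus that also counts *Exosc9*. Without both number 1 siRNA libraries of batch 1 these medians were -0.14 and -0.12. Taking out the dependence on gene length gave medians of -0.11 and -0.092.

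The list of p27 turnover and transcription (14 genes) had a median of 0.020 for siSbsn against siControl, with 7 above 0. *Cks1b*, the cofactor with which SKP2 recognizes p27, was at -0.43 (q = 0.254), *Cul1*, the scaffold of the SCF ligase, at 0.17 (q = 0.254), and *Skp2* itself at 0.050 (q = 0.822). Medians of the remaining lists were 0.12 for RB and E2F genes, 0.00097 for p53 targets, -0.14 for Polycomb and T-box repressors of the *Cdkn2a* and *Cdkn2b* locus, and 0.092 for TGF-beta and SMAD genes. Genes of smallest p in these lists had the following log2-fold changes, none of them called: *Rb1*, the retinoblastoma gene, 0.26 and *E2f2* 0.49, the p53 targets *Gadd45a* -0.66 and *Bbc3* -0.43, the repressors *Phc2* -0.27 and *Tbx3* 0.35, and *Ski*, a SMAD repressor, 0.24. The *Rb1* locus also counts *Rcbtb2*, and the *Gadd45a* locus a neighbouring transcript.

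Between the batches the lists moved in both directions. Of 20 p53 genes, 13 were called higher and 1 (*Perp*, a desmosome-associated protein gene) lower in batch 2, with a median of 0.77 against -0.022 over all loci, where 16.4% of loci were called higher. The genes with the smallest p were *Trp53inp1* (2.25, q = 1.08e-05) and *Aen* (0.98, q = 3.57e-05), both induced by p53, and *Mdm2*, which encodes its ubiquitin ligase, was at 0.72 (q = 0.00011). Without both number 1 siRNA libraries of batch 1, 12 were called higher. The share of all loci called higher in that fit is not given here, so nothing is read from that count. In siControl alone 7 were called higher, where 3.92% of all loci were called higher. The difference of *Cdkn1a*, a p53 target kept out of this list as a member, was smaller than the list median.

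Of the 21 S-phase and mitosis genes, 12 were called lower and 0 higher in batch 2, with a median of -0.59, where 21.3% of loci were called lower. *Aurkb*, a mitotic kinase, had the smallest p of the list (-1.31, q = 2.15e-06), and *Rrm2*, a subunit of ribonucleotide reductase, was at -1.02 (q = 2.99e-05). The number called was also 12 without both number 1 siRNA libraries of batch 1. Nothing is read from that count, since the share over all loci in that fit is not given here. In siControl alone the number was 10, where 10.1% of all loci were called lower. Among the 12 cyclins and CDKs, 4 were called lower, with *Ccne1* at -1.55 (q = 2.13e-05) and *Cdk1* at -1.20 (q = 7.63e-06), and 1 (*Cdk6*, 0.63, q = 0.00446) higher.

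For the remaining lists, the shares over all loci were 16.4% called higher and 21.3% called lower, and nothing is read from counts near these shares. Of 14 genes of p27 turnover and transcription, 2 were called higher (*Myc*, 0.70, q = 0.000325, and *Foxo3*, 0.88, q = 0.0281) and 1 lower (*Cks1b*, -0.87, q = 0.000672). Of 13 RB and E2F genes, 2 were called each way, with *E2f2* at -2.04 (q = 4.41e-05) and *E2f8*, counted together with a neighbouring transcript, at -1.44 (q = 3e-04). Of 13 Polycomb and T-box loci tested, 4 were called higher and 0 lower, among them *Bmi1* (0.88, q = 0.000228), a repressor of *Cdkn2a*, and its partner *Rnf2* (0.75, q = 0.000435). Of 17 TGF-beta and SMAD genes, 3 were called higher and 6 lower, with *Smad4*, the shared SMAD, at 0.66 (q = 0.000606). Without siSbsn batch 1 replicate 1, the counts fell to 1 higher for p27 turnover, 0 higher for RB and E2F, 2 higher for Polycomb and T-box, and 3 lower for TGF-beta and SMAD. In that fit 4151 of all loci were called, against 4852 with the library included. The RB and E2F count was also 0 higher without siControl batch 1 replicate 1, siControl batch 2 replicate 1 or 2, or siSbsn batch 2 replicate 4, and 1 higher without siSbsn batch 2 replicate 5 or 6. The p27 turnover count was also 1 higher without siControl batch 2 replicate 1 or 2, and 2 lower without siControl batch 1 replicate 1 or batch 2 replicate 1. Without siControl batch 1 replicate 2, 2 cyclins and CDKs were called higher. For these fits with 1 library left out, the shares of all loci called in each direction are not given here. Nothing is read from their list counts.

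**Figure D4:**
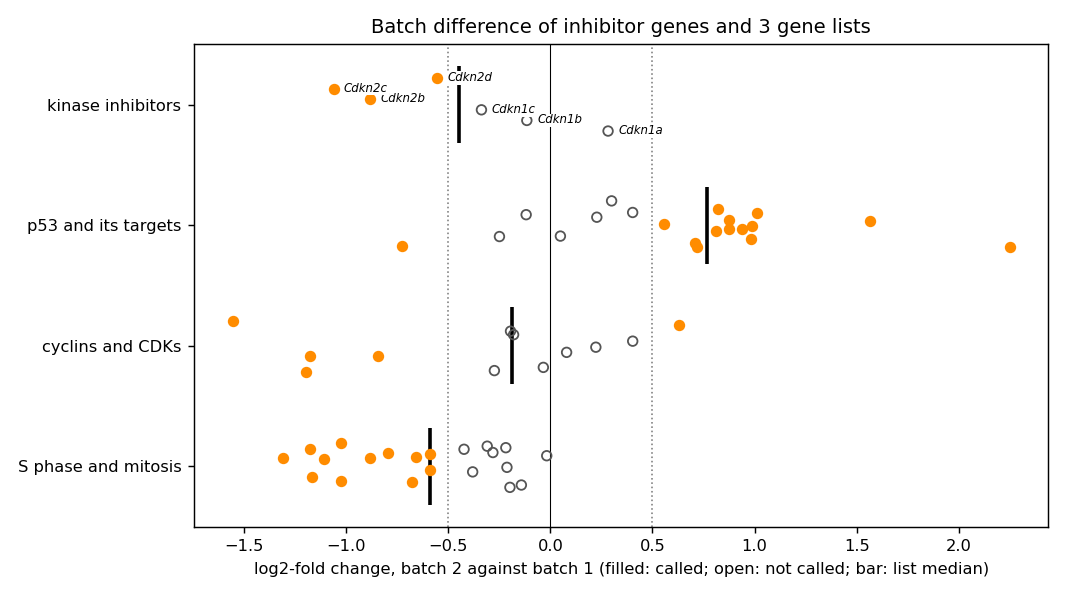
Log2-fold change of batch 2 against batch 1 (horizontal axis) for the 6 inhibitor genes tested and 3 gene lists; filled points were called, open points were not, black bars are medians and dotted lines mark the 0.5 threshold. Medians are 0.77 for p53 and its targets and -0.59 for S-phase and mitosis genes, and *Cdkn2b*, *Cdkn2c* and *Cdkn2d* are the called inhibitors.

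The loci whose levels were most like each member over the 12 libraries were named by Pearson's r of log2 values, with no test. The libraries share batches and conditions, so that r follows any such split. For *Cdkn1b* they were *Cast*, a calpain inhibitor (r = 0.93), *Osbpl5*, *Esrp1*, an epithelial splicing factor, *Calcoco1* and *Vps41* (r = 0.90). For *Cdkn2c* they were *Cenpa*, the centromeric histone (r = 0.98), and *G6pc3*. For *Cdkn1a* they were *Serpine2* and *Fam216a* (r = 0.98 and 0.97, but 0.45 and 0.27 within batch 2), for *Cdkn1c* *Bcl2a1b* and *Fcgrt* (r = 0.92 and 0.91) and for *Cdkn2d* *Rpl29* and *Tgfb1* (r = 0.94 each). Among the members themselves, *Cdkn2c* and *Cdkn2d* had r = 0.86, *Cdkn2a* and *Cdkn2b* had r = 0.84, and *Cdkn1a* and *Cdkn2c* had r = -0.79. For *Cdkn1b* the largest r with another member was 0.52, with *Cdkn2b*.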

How the data were processed

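RNA-Seq of 12 libraries was analysed, grouped by the condition, batch and number in the sample labels. The authors aligned reads to mm10 with STAR, kept unique alignments and deposited whole-number counts per UCSC KnownGene locus, without normalization; a strand setting is not given in the sources used. Overlapping genes share 1 locus. Starts are printed after adding 1. The Methods describe triplicates and used DESeq2 with batch.

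Loci passing edgeR's filter on low counts (12857 for the siRNA libraries, 13176 for batch 1) were normalized by TMM and tested with edgeR 4.0.16 (R 4.3.3). Standard errors were the absolute log2-fold change over the square root of F. CPM rests on 13562 loci passing over 12 libraries, and log2 levels are log2 of CPM plus 0.5. Length is that of the longest GENCODE M21 transcript. The procedure was tested on simulated data. DESeq2 1.42.0, limma-voom (limma 3.58.1), other normalization, filters, batches, controls and libraries were alternatives. The members and lists were chosen with earlier results of these data known. Besides the members and *Sbsn*, the rule names the 2 genes of each list with the smallest p per comparison and the loci most like each member. *Mdm2*, *Skp2*, *Perp*, *Cdk6*, *Foxo3* and *Mki67* were added after their values were seen. A gene that the rule names is not reported here. Alternatives without both number 1 siRNA libraries of batch 1 were added after seeing the data.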

Additional observations from a re-analysis of the deposited data

How the results depend on the processing

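For siSbsn against siControl, no inhibitor gene was called under any alternative run, and the loci called were 0 except for DESeq2 (93 without and 78 with its beta prior), batch 2 alone (1 locus, *Sbsn*) and the fit without both number 1 siRNA libraries of batch 1 (1 locus, *Sbsn*). The direction of *Cdkn1a* turned with the length trend removed (0.14), in batch 2 alone (0.030), with libraries without siRNA pooled with siControl (0.0012), without both number 1 libraries (0.014) and with 1 library left out (-0.035 to 0.0051, upward without siControl or siSbsn batch 1 replicate 1, 0.00085 for the latter). *Cdkn1c* turned to 0.013 with the length trend removed, and *Cdkn2b* ranged from -0.0040 to 0.49 with 1 library left out.

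For batch 2 against batch 1, siControl alone gave 1 member called, 1684 loci and 0.052 for *Cdkn1b*. Leaving out 1 library gave 1 to 3 members, the lowest without siSbsn batch 1 replicate 1, and leaving out both number 1 libraries gave 1, with 0.20 for *Cdkn1c*. The cause was not tested.

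For siControl against no siRNA, 815 loci were called without the filter, 26 by DESeq2 and 0 to 3213 with 1 library left out, the highest without siControl batch 1 replicate 2. For the interaction, DESeq2 called 208 loci, and leaving out 1 library gave 0 to 4398 loci, the highest without siControl batch 1 replicate 2, and 0 to 1 members, which was *Cdkn2b* without siSbsn batch 1 replicate 2 (-1.43, q = 0.044, edgeR). *Cdkn2b* ranged there from -1.43 to 0.028.

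A replicate block was fitted on the numbers of batch 1. Number 1 minus number 2 differences correlated at 0.38, 0.81 and 0.46 over 13562 loci between pairs of conditions. Nothing in the labels used here says what a number marks, and the numbers were not taken as pairs. With the replicate block 0 loci and 0 members were called for siSbsn against siControl, *Cdkn1b* was at 0.45, and with the length trend removed as well *Cdkn1a* was at 0.14, *Cdkn1b* at 0.36 and *Cdkn1c* at 0.0038. The block also gave 0 loci and 0 members for siControl and for siSbsn against no siRNA, with 4512 and 254 loci at an unadjusted p under 0.05 (edgeR). Counts of 51 to 114 for *Cdkn1c* and 0 to 29 for *Cdkn2a* limit what these libraries can show.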
